A study of Mus musculus with 12 samples.

Results

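The core spliceosome genes described here are the protein genes of the small nuclear ribonucleoproteins (snRNPs) and their closest partners, measured by bulk RNA sequencing in mouse frontal cortex with and without Upf3b. They were chosen by name alone: every row whose symbol begins with Snrp, Snrnp, Sf3a, Sf3b, Prpf, U2af or U2surp, with 1 Prpf gene left out by the rule. This gave 44 of the 14909 genes in the deposited table, and 43 of the 44 had enough counts to be tested. The rule uses no measured value, although the group was proposed with earlier results of these data known. The mice were C57BL/6, 5 labelled UPF3B KO (KO 1 to 4 and KO 6) and 7 wild type (WT 1 to 7), with 1 library each. The labels give no age, sex or treatment, and do not say how the null allele was made.

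Spliceosomes remove introns in a fixed order of steps. U1 binds the 5′ splice site, U2AF and U2 with SF3a and SF3b bind around the branch point, the U4/U6.U5 tri-snRNP joins, and the complex that includes Prpf19 acts at activation. Each of U1, U2, U4 and U5 carries a ring of Sm proteins around its RNA, and a rarer set of introns is recognised by U11 and U12 in place of U1 and U2. Upf3b takes part in nonsense-mediated decay (NMD), which degrades mRNAs whose stop codon lies too far upstream of the last exon junction, and several splicing factors are known to limit their own level by including exons with such a stop.

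The Upf3b row followed the labels in every library, with 11 to 24 counts in KO and 157 to 219 counts in WT. Library totals were 4990643 counts in KO 1 and 6068895 to 6617759 in the other KO libraries, against 4684039 to 5425774 in WT, so depth and genotype cannot be told apart except through KO 1, whose total lies within the WT range. KO 2 and WT 4 stood farthest from their own groups, at a root mean square log2 distance of 0.342 and 0.334, against 0.171 to 0.255 for the others. Markers of neurons, astrocytes, oligodendrocytes, microglia and endothelium were all present, with none at 0. Their summed levels were 1500 to 1919 CPM (counts scaled to library size with TMM factors) in KO and 1824 to 2028 CPM in WT for neurons, 1426 to 1710 against 1500 to 1886 for astrocytes, 898 to 1099 against 1022 to 1183 for oligodendrocytes, 390 to 417 against 435 to 542 for microglia and 123 to 152 against 112 to 136 for endothelium. In the test used below, 5 of 5 neuron markers, 1 of 4 astrocyte, 2 of 4 oligodendrocyte and 4 of 6 microglia markers were called lower in KO, and 2 of 3 endothelial markers were called higher. After the offsets for count density described below, only the 4 microglial calls were left. Whether these levels play a part in the results on spliceosome genes was not tested, and in bulk tissue fewer cells of a type and less RNA per cell cannot be told apart.

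Because Upf3b is an NMD factor, the exons of spliceosome genes that carry a premature stop are shown first. GENCODE M21 lists at least 1 transcript of the NMD type for 16 of the 44 genes (36.4%), against 26.6% of all tested genes. The 5 sequences below run 5′ to 3′ on the coding strand from the first base of an exon that no RefSeq-paired transcript of the gene holds to its in-frame stop codon, which is in capitals. They are exon 3 of Snrpb-203 (chr2:130176695-130176752, minus strand), exon 3 of Snrpa-204 (chr7:27194161-27194204, minus), exon 3 of Prpf3-203 (chr3:95849761-95849790, minus), exon 5 of Sf3b1-208 (chr1:55014905-55014924, minus) and exon 10 of Prpf4b-202 (chr13:34899315-34899403, plus), all on GRCm38, the build also called mm10. They were picked from the genes whose stop lies inside the extra exon, and the 5 differ in role as grouped below. Other genes, among them U2af1, U2af2 and Prpf39, also hold such an exon and are not printed.
Snrpb: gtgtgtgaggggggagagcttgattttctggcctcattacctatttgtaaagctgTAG
Snrpa: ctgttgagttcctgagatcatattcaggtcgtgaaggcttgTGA
Prpf3: gagttccaggaagcgctcgcccctggcTGA
Sf3b1: gcttctattctgctgctTGA
Prpf4b: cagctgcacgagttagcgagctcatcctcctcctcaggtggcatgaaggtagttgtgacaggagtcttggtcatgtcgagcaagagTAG

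In KO cortex the genes that fell were mostly those of small snRNP proteins: the Sm genes Snrpd1, Snrpd2, Snrpd3 and Snrpg, Snrpc of U1, Snrpb2 of U2, Sf3b5 and Sf3b6 of SF3b, and Snrnp27 of the tri-snRNP, with fitted changes of -22.1% to -12.6%. Prpf19, U2af2 and Sf3b2 fell less, with changes of -9.70% to -7.57%. The genes that rose were Snrpa1, Prpf4, Snrnp48 and Sf3b3, with changes of 9.12% to 24.4%. At an adjusted p of 0.05 (edgeR quasi-likelihood test, Benjamini-Hochberg over all tested genes, as for every adjusted p here), 12 of 43 were called lower and 4 higher in KO. Over all 14274 tested genes 14.4% were called lower and 15.3% higher, so lower calls were 27.9% of the spliceosome genes and higher calls 9.30%. Their median log2 fold change was -0.07 and that of all tested genes 0.03, and 28 of 43 fold changes were below 0. As a share of the library, the 44 genes together took 0.312% to 0.331% of counts in KO and 0.315% to 0.330% in WT, so the sum over the group overlapped between genotypes.

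**Figure D1:**
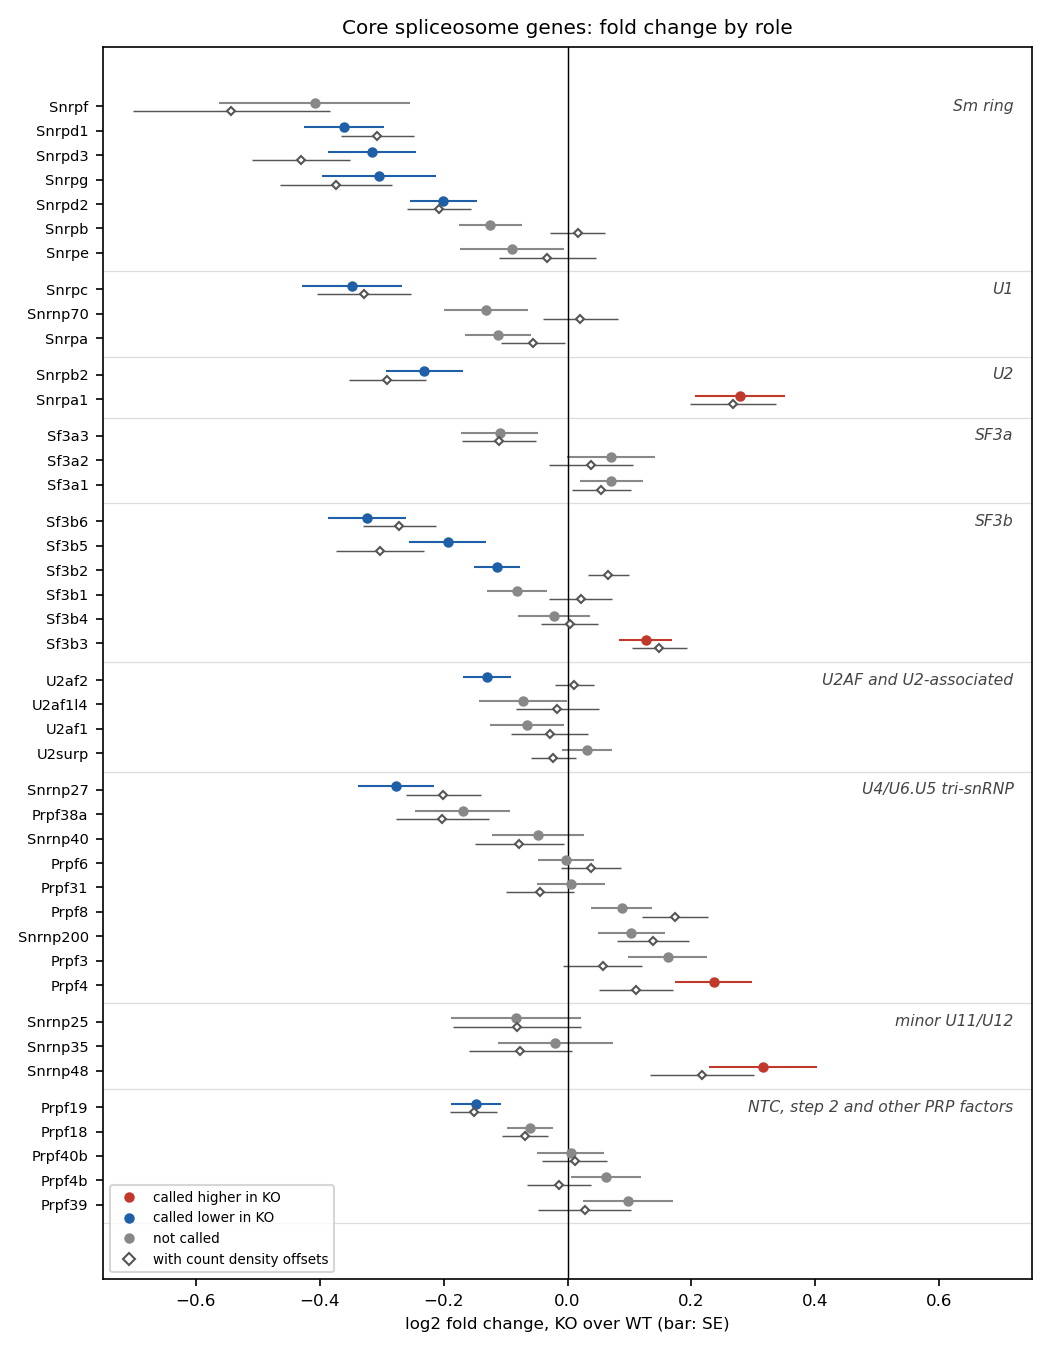
Fold change of 42 of the 43 tested core spliceosome genes, grouped by role. The x axis is the log2 fold change, KO over WT, with its SE; filled points are the group-only fit (red called higher in KO, blue called lower, grey not called) and open diamonds the fit with count density offsets. Snrpf and 4 called Sm genes lie between -0.41 and -0.20, and Snrnp48 is the highest at 0.32.

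At the level of whole genes, spliceosome genes with an annotated NMD-type transcript mostly did not pass the test in either direction. Of the 16, Snrpa1 was called higher in KO and U2af2 lower, and the median log2 fold change was -0.03. Among the other 27 tested genes 3 were called higher and 11 lower, with a median of -0.11. The 2 sets also differed in median coding length, 1461 nt for the 16 and 1011 nt for the 27. With the offsets for count density and coding length described below, their medians were 0.007 and -0.054. That fit called 1 higher and 0 lower of the 16, and 0 higher and 6 lower of the 27. The part of coding length in this contrast was not tested. Over all tested genes, those with an NMD-type transcript were called higher in 21.2% and lower in 12.5% of cases (3786 genes, median 0.06), and those without in 13.2% and 15.0% (10442 genes, median 0.02). None of the 5 genes whose extra exons are printed above passed the test: the log2 fold changes, KO over WT, were -0.13 for Snrpb (adjusted p = 0.0751), -0.11 for Snrpa (0.123), 0.16 for Prpf3 (0.0679), -0.08 for Sf3b1 (0.221) and 0.06 for Prpf4b (0.432). Of the genes that hold such an exon but are not printed, U2af2 was called lower (-0.13, adjusted p = 0.0185), and U2af1 and Prpf39 were not called. The 5 thus do not stand for all genes with such an exon. Inclusion of these exons was not measured, since the deposited counts are totals per gene.

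The Sm ring had the lowest median of any role, -0.30 over 7 tested genes, with 4 called lower and 0 higher. Over all tested genes 14.4% were called lower and 15.3% higher. All 7 have a coding length of 228 to 693 nt, and 27.0% of all tested genes under 1000 nt were called lower. With the density and coding length offsets described below, Snrpd1 and Snrpd3 kept their calls. Snrpd2 and Snrpg lost theirs (adjusted p = 0.2365 and 0.0520). The Sm proteins assemble as a closed ring on the Sm site of each snRNA, so they are needed in fixed proportion.

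Snrpd1, which encodes SmD1, had 24.1, 22.9, 24.3, 25.1 and 25.2 CPM in KO 1, 2, 3, 4 and 6, against a lowest, median and highest value of 28.0, 31.4 and 35.3 CPM in WT. Every KO library was below every WT library, and the log2 fold change was -0.36 ± 0.06 (SE, adjusted p = 0.00140). Snrpd3, the gene of SmD3, had 27.0, 24.9, 24.3, 23.5 and 22.9 CPM in the KO libraries and 27.2, 30.6 and 34.3 CPM as lowest, median and highest in WT.

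Here too the groups did not overlap, though KO 1 lay just under the lowest WT library, and the log2 fold change was -0.32 ± 0.07 (SE, adjusted p = 0.00456). Snrpd2, the gene of the SmD2 partner of SmD1, had 33.1 CPM in KO 1 and 29.3, 27.95, 29.2 and 28.7 CPM in KO 2, 3, 4 and 6, against 32.95, 33.8 and 35.3 CPM in WT. KO 1 sat inside the WT range and the other KO libraries below it, with a log2 fold change of -0.20 ± 0.05 (SE, adjusted p = 0.0127).

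Snrpg, which encodes the smallest ring member, SmG, had 14.7, 14.3, 14.6, 12.6 and 13.0 CPM in KO, against 13.98, 17.2 and 19.4 CPM as lowest, median and highest in WT. Its groups overlapped at the low end of WT, and the log2 fold change was -0.30 ± 0.09 (SE, adjusted p = 0.0224). That call was lost without KO 4 or KO 6 (adjusted p = 0.0659 and 0.0534). Snrpe (SmE) had a log2 fold change of -0.09 ± 0.08 and Snrpf (SmF) one of -0.41 ± 0.15 (SE, adjusted p = 0.445 and 0.0581), so neither passed. For Snrpf, 65.9% of exonic bases overlap Ccdc38 on the opposite strand, and the strand setting of the counts is not given in the sources used here, so its counts are uncertain. Snrpf was called lower without KO 1, KO 4 or WT 3 (adjusted p = 0.0346, 0.0489 and 0.0493).

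Snrpb, which encodes SmB and is the Sm gene best known for an NMD exon, had 62.2, 56.5, 60.0, 59.2 and 60.3 CPM in KO, against 60.5, 62.1 and 70.0 CPM as lowest, median and highest in WT. KO 1 reached the WT median and the other KO libraries were just below the WT range. Snrpb was called lower without WT 4 (adjusted p = 0.0426) and with RLE factors (adjusted p = 0.0486), and its log2 fold change had the other sign with count density offsets (0.016) and with density and coding length offsets (0.075). Snrpn encodes SmN, which replaces SmB in the ring in brain and is imprinted. The deposited Snrpn row held only 5, 16, 12, 11 and 12 counts in KO and 3, 5 and 12 counts as lowest, median and highest in WT, and it was below the filter on low counts. Its exons overlap the annotated genes Snurf (216 bases) and Gm38393 (589 bases) on the same strand, so the row may not stand for the level of the SmN mRNA, and what the counting did with shared reads is not given in the sources used here. The Snrpn share of Snrpb plus Snrpn, per exonic base, was 1.66% ± 0.54 in KO and 1.05% ± 0.51 in WT (SD, n = 5 and 7). The difference of 0.615 percentage points (1.08 on raw counts with no division by length, exact permutation p = 0.0732) did not pass an exact two-sided permutation test over all arrangements of the 12 libraries (p = 0.0720, smallest possible 0.00126). The difference passed without KO 1 (0.803, exact permutation p = 0.0273), without WT 4 (0.769, exact permutation p = 0.0173) and without both KO 2 and WT 4 (0.584, exact permutation p = 0.0429). With each library left out in turn, the exact permutation p ran from 0.0173 to 0.179.

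Of the genes of U1 proteins, Snrpc fell and the others did not pass. Snrpc encodes U1-C, which steadies the pairing of U1 with the 5′ splice site. It had 19.2, 16.8, 16.6, 16.5 and 18.6 CPM in KO, against 19.7, 21.7 and 25.3 CPM as lowest, median and highest in WT. No KO library reached the WT range, KO 1 being the closest, and the log2 fold change was -0.35 ± 0.08 (SE, adjusted p = 0.00521). Snrpa (U1-A) had a log2 fold change of -0.11 ± 0.05 and Snrnp70 (U1-70K) one of -0.13 ± 0.07, with overlapping groups (SE, adjusted p = 0.123 and 0.156). Snrnp70 was called lower without WT 4 (-0.18, adjusted p = 0.0394) and without KO 2 and WT 4 (-0.20, adjusted p = 0.0268). Its sign turned with density offsets (0.02) and with library total as a covariate (0.09).

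The genes of the partner proteins of U2 moved in opposite directions at the level of mRNA, and protein was not measured. Snrpa1 encodes U2-A′ and Snrpb2 encodes U2-B″, which bind the same stem-loop of U2 RNA as a pair. Snrpa1 had 32.1, 30.03, 32.5, 29.5 and 28.5 CPM in KO, against 21.6, 24.3 and 28.9 CPM as lowest, median and highest in WT. KO 6 alone came under the highest WT library, and the log2 fold change was 0.28 ± 0.07 (SE, adjusted p = 0.0104).

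Snrpb2 had 31.5, 29.1, 30.9, 30.5 and 28.2 CPM in KO, against 32.7, 34.0 and 40.2 CPM as lowest, median and highest in WT. All 5 KO libraries were below all 7 WT libraries, and the log2 fold change was -0.23 ± 0.06 (SE, adjusted p = 0.0120). Snrpa1 was called higher and Snrpb2 lower with each of the 3 offsets described below as well. Both calls were lost with the mouse number as a block (adjusted p = 0.0873 for Snrpa1 and 0.0693 for Snrpb2). They were also lost with library total as a covariate (adjusted p = 0.435 and 0.423).

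SF3a and SF3b make U2 competent to hold the branch point. In SF3a no gene passed: the log2 fold changes were 0.07 for Sf3a1, 0.07 for Sf3a2 and -0.11 for Sf3a3. In SF3b, 3 of 6 were called lower and 1 higher, against 14.4% and 15.3% of all tested genes. Within SF3b the genes of the small subunits Sf3b6 and Sf3b5 fell most. Their coding lengths are 375 and 258 nt, and 27.0% of all tested genes under 1000 nt were called lower. With the density and coding length offsets described below, Sf3b6 kept its call and Sf3b5 lost it (adjusted p = 0.0287 and 0.0572).

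Sf3b6 encodes p14, the subunit that lies close to the branch point adenosine. It had 35.2, 33.3, 34.5, 32.5 and 33.4 CPM in KO, against 37.9, 40.2 and 47.8 CPM as lowest, median and highest in WT. The groups did not overlap, the KO libraries were closely spaced, and the log2 fold change was -0.32 ± 0.06 (SE, adjusted p = 0.00214).

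Sf3b5, the gene of a small subunit of SF3b, had 37.2, 31.4, 34.5, 34.3 and 37.1 CPM in KO, against 37.0, 39.6 and 44.9 CPM as lowest, median and highest in WT. KO 1 and KO 6 were at the lower edge of WT, and the log2 fold change was -0.19 ± 0.06 (SE, adjusted p = 0.02995). The call was lost in 6 of the 12 fits without a library (KO 2, 3 and 4 and WT 1, 2 and 5), with an adjusted p of up to 0.0829.

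Sf3b3, which holds the complex together, had 123, 139.9, 130.1, 128 and 124 CPM in KO, against 112, 118 and 127 CPM as lowest, median and highest in WT. Its groups overlapped, and the log2 fold change of 0.13 ± 0.04 (SE, adjusted p = 0.0349) was no longer called in 8 of the 12 fits without a library (KO 2, 3 and 4 and WT 1, 2, 3, 5 and 6), where the adjusted p reached 0.0994. Sf3b1, the large scaffold that closes around the branch helix, had a log2 fold change of -0.08 ± 0.05 and Sf3b4 one of -0.02 ± 0.06 (SE, adjusted p = 0.221 and 0.809). With exonic length offsets Sf3b1 was called lower, at -0.18 (adjusted p = 0.00371), and with density offsets its log2 fold change was 0.02.

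Sf3b2 had 225, 208, 200.2, 205 and 207 CPM in KO, against 215, 228 and 231 CPM as lowest, median and highest in WT, and it was the most abundant spliceosome gene per length. KO 1 was inside the WT range and the other KO libraries below it, giving a log2 fold change of -0.11 ± 0.04 (SE, adjusted p = 0.0305). That sign turned with count density offsets, which gave 0.07 (adjusted p = 0.195). The same held for U2af2, the large U2AF subunit that binds the polypyrimidine tract. U2af2 had 120.3, 112, 108, 110.5 and 112 CPM in KO, against 118, 122 and 131 CPM as lowest, median and highest in WT, with a log2 fold change of -0.13 ± 0.04 (SE, adjusted p = 0.0185), and with density offsets 0.011 (adjusted p = 0.857). Beside it U2af1, the subunit that reads the AG of the 3′ splice site, its relative U2af1l4 and the U2-associated protein U2surp had log2 fold changes of -0.07, -0.07 and 0.03, and none passed. U2af1l4 shares 97.3% and U2af1 53.5% of its 50-base stretches with other annotated genes, so both counts are uncertain.

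Within the tri-snRNP, 1 of 9 genes was called lower and 1 higher, below the 14.4% and 15.3% of all tested genes. Snrnp27, a serine- and arginine-rich tri-snRNP protein, had 30.5, 30.8, 29.9, 28.3 and 28.8 CPM in KO, against 32.5, 35.7 and 40.2 CPM as lowest, median and highest in WT. The groups did not overlap, and the log2 fold change was -0.28 ± 0.06 (SE, adjusted p = 0.00423). The call was lost with exonic length offsets (-0.15, adjusted p = 0.0651) and with density and coding length offsets (-0.12, adjusted p = 0.2099). Prpf4, which binds the U4/U6 duplex together with Prpf3, had 41.5, 41.9, 44.7, 44.6 and 45.8 CPM in KO, against 32.3, 37.4 and 41.1 CPM as lowest, median and highest in WT.

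For Prpf4 every KO library was above every WT library, with a log2 fold change of 0.24 ± 0.06 (SE, adjusted p = 0.0114). With count density offsets the log2 fold change was 0.11 and no longer called (adjusted p = 0.225). Of the large U5 proteins Prpf8, the catalytic scaffold, had a log2 fold change of 0.09 ± 0.05, and Snrnp200, the helicase that unwinds U4/U6, one of 0.10 ± 0.05 (SE, adjusted p = 0.195 and 0.166). With density offsets Prpf8 was called higher, at 0.17 (adjusted p = 0.0403). Prpf6 and Prpf31, which bridge U5 with U4/U6, had log2 fold changes of -0.0026 and 0.0054, and the U5 protein Snrnp40 and the B-complex protein Prpf38a had -0.05 and -0.17, none of which passed.

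Among the genes of U11 and U12 proteins, Snrnp48 was called higher. It takes part in reading the 5′ splice site of minor introns. Snrnp48 had 21.7, 23.3, 22.2, 24.0 and 22.1 CPM in KO, against 15.1, 17.8 and 21.8 CPM as lowest, median and highest in WT. KO 1 lay just inside the WT range, and the log2 fold change was 0.32 ± 0.09 (SE, adjusted p = 0.0142), or 0.22 with density offsets (adjusted p = 0.0932). Snrnp25 and Snrnp35, which belong to the same particle, had log2 fold changes of -0.08 and -0.02 and did not pass.

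The last set holds Prpf19, the ubiquitin ligase at the centre of the complex that carries its name, with splicing factors that act at other steps. Prpf19 had 145.8, 135, 129.7, 128 and 135 CPM in KO, against 140.3, 149 and 157 CPM as lowest, median and highest in WT. KO 1 was inside the WT range and the other KO libraries below it, and the log2 fold change was -0.15 ± 0.04 (SE, adjusted p = 0.0134). It stood apart from the small proteins in coding length, at 1569 nt, and it was called lower with each of the 3 offsets. The second-step factor Prpf18, the kinase Prpf4b, and Prpf39 and Prpf40b, whose yeast relatives are U1 proteins, had log2 fold changes between -0.06 and 0.10, and none passed.

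**Figure D2:**
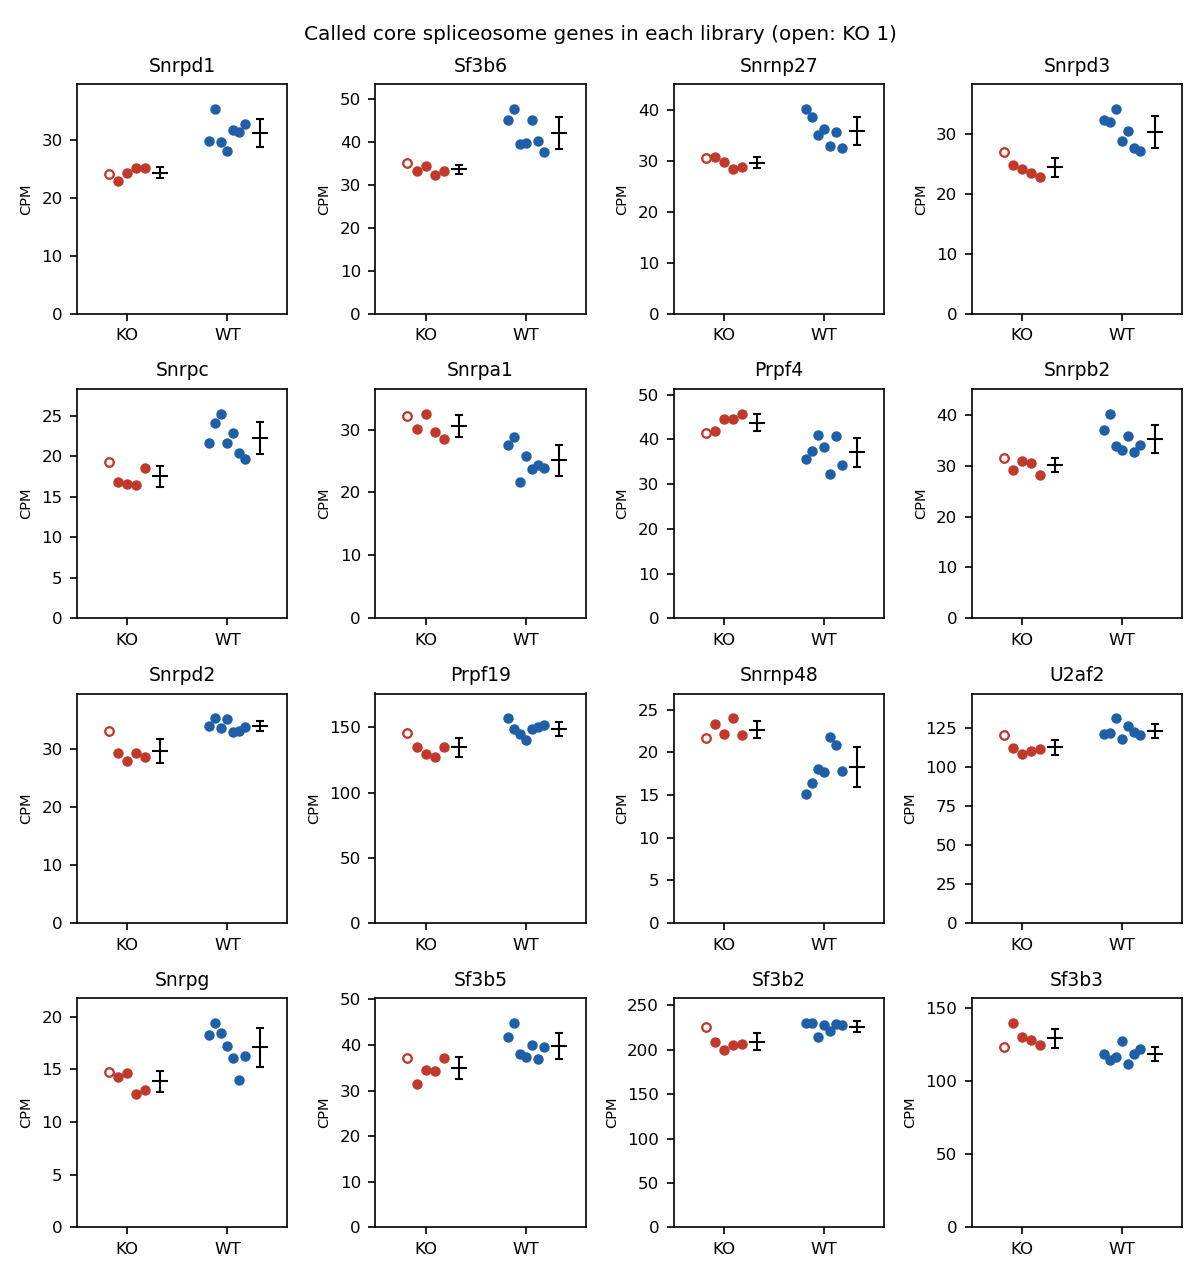
CPM of each of the 16 called genes in every library, with KO (red) left of WT (blue) and the mean with its SD beside each group (n = 5 and 7); the open red point is KO 1, the KO library whose depth lies within the WT range. For Snrpd1 all KO libraries, 22.9 to 25.2 CPM, lie below all WT libraries, 28.0 to 35.3 CPM, whereas for Snrpd2, Prpf19 and Sf3b2 KO 1 sits among the WT points.

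Of the 43 tested genes, 6 had all KO libraries below all WT libraries (Snrpc, Snrpd1, Sf3b6, Snrpd3, Snrnp27 and Snrpb2) and 1, Prpf4, had all above. Over all tested genes 4.80% had such ranges below WT and 5.84% above. KO 1, the library of WT-like depth, lay outside the WT range in the called direction for 8 of the 16 called genes: Snrpd1, Sf3b6, Snrnp27, Snrpd3, Snrpc and Snrpb2 below, and Snrpa1 and Prpf4 above. It lay inside for the other 8. The share over all called genes is not given here, so these counts only describe the genes named. Of the 16 calls, 11 held without any 1 of the 12 libraries, and U2af2, Snrpg, Sf3b5, Sf3b2 and Sf3b3 were lost without at least 1. No rate over all called genes is given for this either. U2af2 was lost without KO 3 or KO 4 (adjusted p = 0.0557 and 0.0516), and Sf3b2 without KO 2, 3, 4 or 6 or WT 1, 6 or 7 (adjusted p up to 0.0863). Gained without 1 library, beside Snrpf, Snrpb and Snrnp70, were Prpf3 higher without WT 2 (adjusted p = 0.0382), Snrnp200 higher without WT 4 (0.0408) and Prpf38a lower without WT 6 (0.0318). Reads of close copies may be shared: of the 50-base stretches of each gene, other annotated genes hold 29.1% for U2af2, 26.7% for Snrpc, 18.6% for Snrpg, 13.8% for Snrpd1 and 11.7% for Snrpd2, and 0% for Sf3b6.

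Levels per kb of exonic length were highest for Sf3b2, at 64.9 ± 2.9 CPM per kb in KO and 70.2 ± 1.8 in WT (SD, n = 5 and 7, as below). The WT means of Snrnp70 (60.3 ± 5.8), U2af2 (56.1 ± 2.0) and Snrpb (56.0 ± 3.7) came next and did not differ beyond their spread. Among tested genes the lowest in WT were Snrpf, at 5.51 ± 1.04 CPM per kb in KO and 7.27 ± 1.05 in WT, and Prpf4, at 8.36 ± 0.36 in KO and 7.11 ± 0.63 in WT. Snrpn, which was not tested, was the lowest of all the group, at 0.863 ± 0.255 CPM per kb in KO and 0.588 ± 0.270 in WT. The Sm genes, which a ring needs in equal numbers, differed in level per length: 55.96 CPM per kb in WT for Snrpb, 36.4 for Snrpd1, 34.4 for Snrpe, 23.9 for Snrpd2, 16.2 for Snrpg and 10.03 for Snrpd3. These values depend on the annotated exonic length, which was 858 nt for Snrpd1, 1420 nt for Snrpd2 and 3036 nt for Snrpd3. Without division by length the WT means in that order were 31.2, 34.0 and 30.5 CPM. Those of Snrpb, Snrpe and Snrpg were 65.0, 17.3 and 17.1 CPM. The exonic length in use in cortex was not measured.

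**Figure D3:**
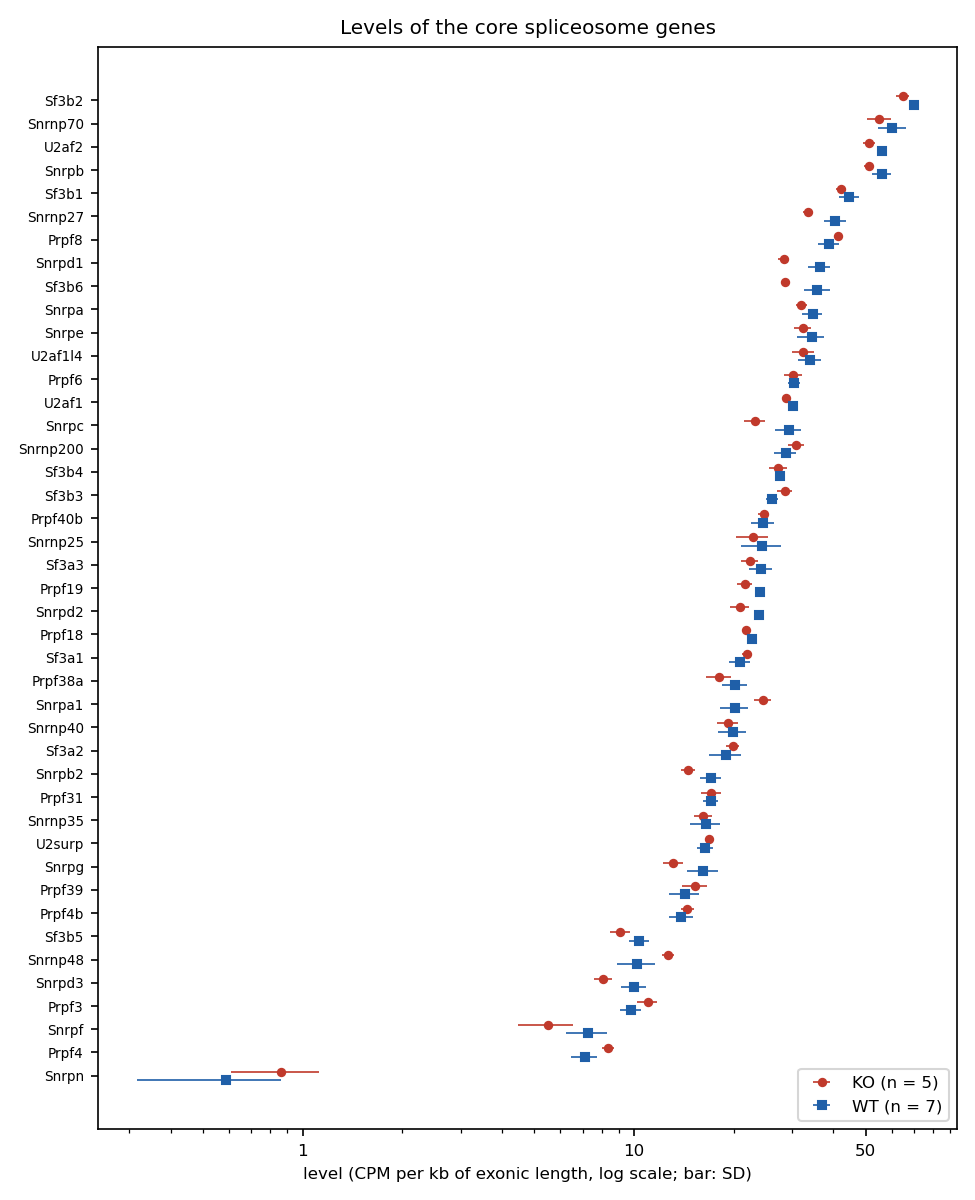
Level of 43 of the 44 core spliceosome genes per kb of exonic length (CPM per kb, log axis), ordered by WT mean; red circles are KO means (n = 5) above blue squares for WT means (n = 7), with SD bars. Sf3b2 is highest at 70.2 CPM per kb in WT and Snrpn lowest at 0.588.

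Most lower calls, 9 of 12, fell on genes of short coding length, and short genes were called lower more often over the whole table as well. Splitting at a coding length of 1000 nt, a value chosen after the fold changes were seen, 9 of 19 short spliceosome genes were called lower and 1 higher, with a median log2 fold change of -0.19. All tested genes as short as that were called lower in 27.0% and higher in 5.48% of cases, with a median of -0.08 (4143 genes). Spliceosome genes of 1000 nt or more had 3 called in each direction of 24 and a median of 0.02, against 9.32% lower, 19.7% higher and a median of 0.07 for all genes of that length (9524 genes). Spearman's rho between coding length and log2 fold change was 0.685 across the 43 spliceosome genes and 0.393 across 13667 tested genes. These correlations run across genes that share the same 12 libraries and their depths, and genes are not independent replicates.

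**Figure D4:**
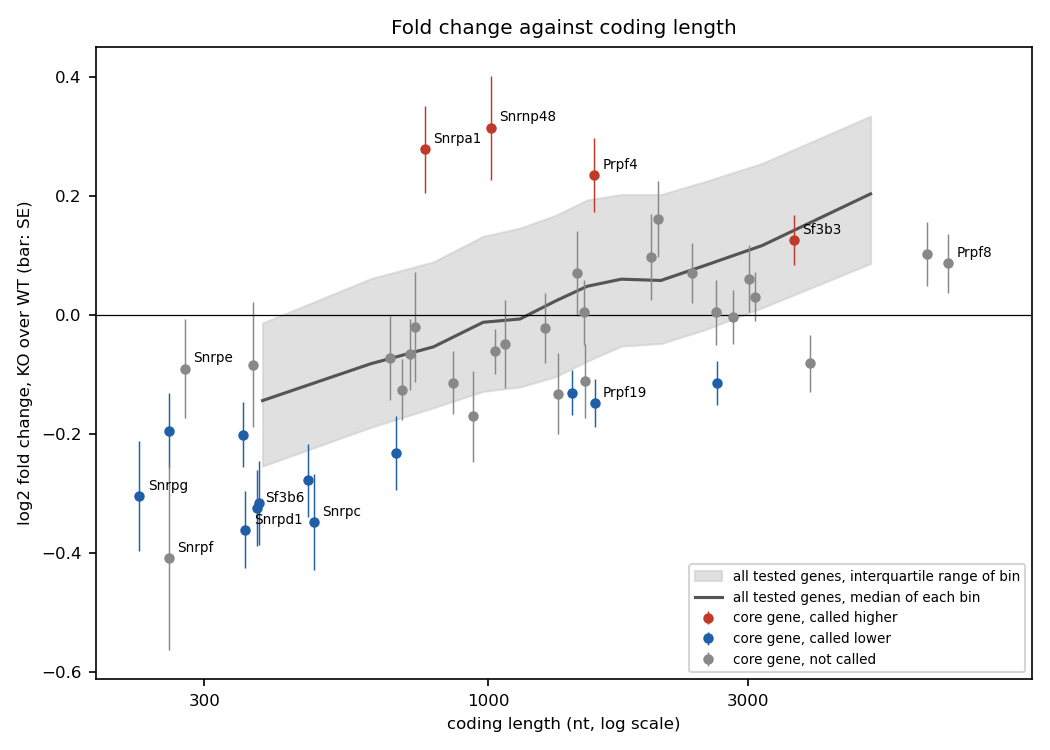
Log2 fold change, KO over WT, against coding length in nt (log axis) for 42 of the 43 tested core spliceosome genes (points with SE, coloured by call). The line is the median and the grey band the interquartile range of all tested genes in bins of coding length, the median running from -0.14 at 384 nt to 0.20 at 5046 nt; Snrpd1, Snrpc and Sf3b6 lie below the short end of the band, and Snrpa1 and Snrnp48 above it.

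Offsets were used to measure the same genes with other trends removed from each library. With a loess on count density (counts per exonic base), 11 spliceosome genes were called lower and 3 higher, where 7.86% of all tested genes were called lower and 8.32% higher, and the median was -0.02 for spliceosome genes and 0.0026 for all. These offsets left the relation with coding length in place, with rho at 0.714 for spliceosome genes and 0.359 for all. Snrpf and Prpf8 were newly called, and Prpf4, Snrnp48, U2af2 and Sf3b2 were lost. With a loess on exonic length, 9 were called lower and 2 higher, against 16.5% and 11.8% of all tested genes. Snrpd2, Snrpc, Snrpg, Snrnp27, Prpf4 and Sf3b3 were lost there and Sf3b1 was gained, and rho with coding length was 0.282 and 0.184. With count density and coding length together, 6 were called lower and 1 higher, against 6.26% and 6.91%, and rho with coding length was 0.287 for spliceosome genes and -0.00064 for all. Called the same way in the group-only fit and with each of the 3 offsets were 6 genes: Snrpa1 higher, and Snrpd1, Snrpd3, Snrpb2, Sf3b6 and Prpf19 lower. With both offsets together their log2 fold changes were 0.32, -0.21, -0.33, -0.23, -0.17 and -0.16, in that order. How often a called gene of the whole table kept its call in all of these fits is not given here, so the 6 have no background rate. With the log2 library total as a covariate 0 spliceosome genes were called in either direction by edgeR, against 0.0771% of all tested genes lower and 0.588% higher. At an unadjusted p of 0.05 that fit had 4 lower (Snrpd1, Sf3b6, Snrnp27 and Sf3a3) and 1 higher (Prpf39), where 5.67% of all tested genes were lower and 7.40% higher, and Sf3a3 and Prpf39 were not called in the group-only fit. In that fit the log2 fold changes were -0.35 ± 0.11 for Snrpd1, -0.29 ± 0.11 for Sf3b6 and 0.24 ± 0.12 for Snrpa1, but -0.015 ± 0.053 for Prpf19 (SE, adjusted p = 0.220, 0.279, 0.435 and 0.931). The part that depth plays cannot be told apart from that of genotype here.

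In a list of other spliceosome and snRNP assembly genes, 100 of 102 were in the table and tested, and 16 were called lower and 10 higher, with a median log2 fold change of -0.03. These shares of 16% and 10% lie near or below the 14.4% and 15.3% of all tested genes. With density offsets 6 were called in each direction, below the 7.86% lower and 8.32% higher over all tested genes. The genes named next are thus examples and not a result about the list. The lowest adjusted p among the lower calls belonged to Ik, a B-complex protein, at 98.4 ± 2.0 CPM in KO and 116.8 ± 3.8 in WT (SD, n = 5 and 7), a log2 fold change of -0.25 ± 0.03 (SE, adjusted p = 0.000337). Strap, a member of the SMN complex that loads Sm proteins on snRNA, had a log2 fold change of -0.25, Syf2 -0.21, Htatsf1, a U2 partner, -0.18 and Puf60, which aids U2AF, -0.16. With density offsets the log2 fold changes were -0.11 for Ik, -0.13 for Strap, -0.13 for Syf2 (no longer called, adjusted p = 0.0769), -0.11 for Htatsf1 and 0.03 for Puf60. On the other side Ppwd1, a cyclophilin of the spliceosome, had a log2 fold change of 0.50 ± 0.10 (SE, adjusted p = 0.00268), Rbm10 0.28, Gemin5, which recognises snRNA for Sm ring assembly, 0.25, the tri-snRNP helicase Ddx23 0.21 and the U1 partner Luc7l 0.15. With density offsets all 5 were still called higher, Ppwd1 at 0.36 and Gemin5 at 0.13. The mRNAs of Gemin5 and Strap, both of the SMN complex, thus moved in opposite directions.

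Promoter motifs were searched as a feature that the choice by name did not use. In the RefSeq table of promoters (GRCm38.p6, 250 bases before to 50 after each start), 36 of the 44 genes had an entry. The ETS motif CCGGAAG, searched on both strands, was present in 17 of 36 (47.2%), against 18.1% of 10866 tested genes with an entry. Among spliceosome genes called lower it was present in 7 of 9 with an entry (Prpf19, Sf3b2, Sf3b6, Snrnp27, Snrpb2, Snrpc and Snrpg), and among those called higher in 1 of 4 (Sf3b3). The share of the motif among all tested genes called lower or higher is not given here. This split thus describes only the genes named, and a link of the motif with direction was not tested. The NRF1 motif GCATGCGC was in 5.56% against 5.75% of tested genes, the YY1 motif AAGATGGCG in 2.78% against 3.29%, the CRE motif TGACGTCA in 5.56% against 3.55% and the TATA motif TATAAA in 11.1% against 8.82%. None of these 5 motifs contains another. A match says only that these letters are in the window. Printed below, from RefSeq with motif letters in capitals, are the bases upstream of the first annotated base of Sf3b6 (chr12:4817358-4817543, plus strand) and Prpf19 (chr19:10894981-10895230, plus strand), both called lower with every offset and holding an ETS match upstream of the gene.
Sf3b6: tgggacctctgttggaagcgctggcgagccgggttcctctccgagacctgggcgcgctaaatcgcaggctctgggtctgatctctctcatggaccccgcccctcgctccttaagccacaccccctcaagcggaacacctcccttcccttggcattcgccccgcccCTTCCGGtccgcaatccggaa
Prpf19: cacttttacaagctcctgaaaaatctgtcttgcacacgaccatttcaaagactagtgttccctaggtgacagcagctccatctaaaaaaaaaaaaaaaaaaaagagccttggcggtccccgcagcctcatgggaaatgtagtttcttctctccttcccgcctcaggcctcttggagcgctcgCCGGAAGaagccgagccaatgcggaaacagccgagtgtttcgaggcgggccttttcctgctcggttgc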

How the data were processed

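The authors deposited a table of raw counts, whole numbers for each RefSeq gene in each library, without scaling or pooling. STAR and mm10 are named, per the submitters' processing notes, and the labels' protocols give Trizol and column extraction of total RNA. The counter, its strand setting and any removal of duplicate reads have no statement in the sources used here. Library totals (4684039 to 6617759 counts) set the precision of low genes such as Snrpn.

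Counts were tested with edgeR 4.0.16 (R 4.3.3; TMM, filterByExpr, quasi-likelihood fit on genotype without covariates, 12 libraries, Benjamini-Hochberg over 14274 genes at 0.05), and the scripts were tested on simulated data. The biological coefficient of variation was 8.11%. Alternatives were upper-quartile and RLE factors, DESeq2 1.42.0, limma-voom (limma 3.58.1), other filters, the mouse number as a block, per-library loess offsets, the library total as a covariate, KO 2 and WT 4 left out, and each library left out. Offsets for exonic length, and for density with coding length, were chosen after seeing the data. Lengths, overlaps and NMD-type transcripts came from GENCODE M21.

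The genes, lists and tests were chosen with earlier results of these data known. Every gene of the group is named except 1, which counts in the totals but is not reported here. Values per library are given for Snrpb and Snrpn, and for up to 8 higher and 10 lower calls with the smallest p that keep their sign with density offsets. Called genes whose sign turns with them are given too, and up to 5 calls in each direction from the other list. P-values measure the spread between mice, as titled in the labels. WT 6 and WT 7 differed by little more than sampling noise (chi-square per degree of freedom 1.03) and were kept separate.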

Additional observations from a re-analysis of the deposited data

Results flagged for a closer look

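A library far from the rest of its group was found in 6 of the 88 combinations of gene and genotype examined, and chance alone marks about 1 in 20. Prpf6 had 82.2 CPM in KO 1, below 94.4 to 96.3 CPM in the other KO libraries, and Prpf31 had 47.6 CPM in KO 6, below 54.6 to 57.4 CPM. Snrpd2 had 33.1 CPM in KO 1, above 28.0 to 29.3 CPM in the other KO libraries, and the other 4 were below every WT library. In WT 6, Prpf38a had 25.2 CPM, below 29.97 to 33.2 CPM in the other WT libraries, and Prpf39 had 70.6 CPM, above 53.0 to 60.3 CPM. Snrnp40 had 37.7 CPM in WT 2, above 28.5 to 32.1 CPM. The part of depth, dissection or RNA quality in these values was not tested.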

How the results depend on the processing

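Upper-quartile and RLE factors, DESeq2, limma-voom, other filters and leaving out KO 2 and WT 4 gave 12 to 14 lower and 3 to 4 higher calls among the core spliceosome genes. They held 15 or 16 of the 16 calls, Sf3b3 being the one lost, and added Snrpb, Snrpf or Snrnp70 in 3 settings. Offsets for count density, exonic length, and density with coding length gave median log2 fold changes of -0.023, -0.034 and -0.022. They gave 3, 2 and 1 higher calls among core genes (6 lower with density and coding length), and 6, 5 and 6 higher calls in the other list (6 lower with density, 7 with both). Over all genes density offsets gave 1188 higher and 1122 lower calls, and both together 986 and 894. With log2 library total in the model there were 0 and 0 calls among core genes, 0 and 0 in the other list, and 84 higher and 11 lower over all genes. The sign turned for U2af2 and Sf3b2 with density offsets (0.011 and 0.066) and with density and coding length (0.010 and 0.016). The cause was not tested. With KO 2 and WT 4 left out the difference in Snrpn share was 0.584 percentage points and passed. Leaving out each library in turn gave 3 to 5 higher and 9 to 14 lower core genes, 7 to 11 and 11 to 18 in the other list, 1585 to 2420 and 1544 to 2467 over all genes, a core median of -0.096 to -0.053 and a Snrpn share difference of 0.429 to 0.803 percentage points. Same-numbered KO and WT mice did not deviate together (correlations of -0.376 to 0.142). The labels do not say whether equal numbers mean a pairing, and correlations for 5 shared numbers cannot decide it. The mouse number as a replicate block gave 1 higher and 6 lower core genes, 4 and 7 in the other list and 1129 and 1186 over all genes, and no KO library correlated best with its own number. Low counts limit Snrpn and Snrpf most.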
